A study of Mus musculus with 12 samples.

Results

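The genes of glycolysis were followed through the Nfib experiments as a group of 34 members of the 28112 features in the table of results. They comprise glucose and lactate transporters, the enzymes of each step, and the PFKFB and PDK regulators. They were chosen by name, gene by gene, and all 34 were found under their own names. The RNA came from 3 lines of mouse small cell lung cancer, a neuroendocrine tumor; the labelled genotype, which treated and control samples share, is Trp53-/-;Rb1-/-. 16T and KP1, labelled Nfib high, carried an shRNA against Nfib (sh2 in the titles of both lines) or a control shRNA (shLuc). KP22, labelled Nfib low, carried Nfib cDNA or an empty vector. Each of the 6 groups had 2 samples, and all lines grew as floating spheres in RPMI with serum. No label says that the duplicates were separate cultures, so p-values measure only the spread between these samples, which may be technical. Each knockdown rests on a single shRNA. The comparisons ask how transcripts changed where Nfib, a DNA-binding factor of the NFI family, was lowered or raised.

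Glycolysis turns glucose into pyruvate in the cytosol and yields ATP without oxygen. Hexokinase, phosphofructokinase and pyruvate kinase catalyse its effectively irreversible steps, and most steps are shared by isozymes that differ in tissue and regulation. Pyruvate is either reduced to lactate and exported, or enters mitochondria through the pyruvate dehydrogenase complex, which the PDK kinases switch off. Many of these genes are known targets of the hypoxia-inducible factor HIF-1, and some of MYC proteins, and tumor cells often run the pathway fast even in air.

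The values were log2 fold changes with standard errors (given after ±) from a fit by the authors. Values per sample were not analysed here, so the number of samples showing each direction and the depth of each library are unknown. The words rose and fell are used where the adjusted p in the authors' deposited table, from the Wald test of a change of 0, was below 0.05. The headings give no direction, so it was read from Nfib, which the authors' deposited table gives at -1.08 ± 0.035 for 16T, -1.32 ± 0.035 for KP1 and 1.80 ± 0.036 for KP22 as log2 fold changes. Among neuroendocrine markers, Chga, Syp and Grp had mean normalized counts of 25383, 5289.7 and 110.1. Markers of leukocytes, fibroblasts and endothelium had medians of 1.38 (range 0 to 157), 73.2 (2.02 to 2220) and 100.3 (2.11 to 495), with Cd3e at 0, Pdgfra highest of the fibroblast list and Kdr of the endothelial one. The pair of genes labelled as deleted had means of 411 and 6555, and which exons were removed is not given.

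Most glycolysis genes rose in 16T with the Nfib shRNA, while the group fell in part in KP1, and mostly fell in KP22 with Nfib cDNA. In 16T, 25 of 33 tested members rose, against 20.0% of all 14504 genes tested, and 1 fell, against 25.3%. The median log2 fold change was 1.09 over the members and -0.05 over all tested genes. A rise of at least 1 on the log2 scale, which is a doubling, was found in 17 of the 33 members and in 3.76% of all tested genes. In KP1, 2 of 33 members rose, against 17.6% of tested genes, and 11 fell, against 19.6%. The medians in KP1 were -0.12 over the members and -0.02 over all genes, and the largest change of a called member was 0.81. In KP22, 2 of 34 members rose and 22 fell, against 19.5% and 18.8% of 17544 tested genes, and the medians were -0.33 and 0.04. With a change of at least 1 also required, 0 of 33 members were called in KP1 (background 5.96%) and 4 of 34 in KP22 (background 8.07%). The authors' deposited test against 0.5 called 2 of 33 in KP1, near the background of 4.87%, and 5 of 34 in KP22 (background 7.20%).

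Some fibroblast markers moved beside the group. Of 4 tested in 16T, 3 rose, namely Pdgfrb (2.01 ± 0.38, adjusted p = 6.67e-07), Dcn (0.61 ± 0.21, adjusted p = 0.0108) and Pdgfra (0.24 ± 0.077, adjusted p = 0.00521) in the authors' deposited table. Pdgfra fell in KP1 (-0.47 ± 0.069, adjusted p = 1.44e-10), and Pdgfrb fell in KP22 (-1.21 ± 0.38, adjusted p = 0.00532) in the authors' deposited table. No other fibroblast marker was called in KP1 or KP22, where Dcn had -0.05 ± 0.23 and 0.08 ± 0.44. The collagen gene Col1a1, at a mean of 21.6, was called in no line (0.21 ± 0.50, -0.41 ± 0.49 and 0.06 ± 0.50 in 16T, KP1 and KP22). Col1a2 was barely detected, at a mean of 2.02. The endothelial marker Kdr fell in every line (-1.48 ± 0.18 in 16T, -1.62 ± 0.21 in KP1, -1.76 ± 0.16 in KP22) by the authors' deposited table. The rest of the endothelial list was not called in any line. Tek had -0.39 ± 0.29, -0.55 ± 0.38 and -0.55 ± 0.45 in 16T, KP1 and KP22 in the authors' deposited table. Pecam1 had -0.21 ± 0.48, 0.16 ± 0.48 and 0.70 ± 0.52 there, and Cdh5 was barely detected, at a mean of 2.11. The part of such cells in the results was not tested, and fewer cells of a type cannot be told apart from less RNA per cell.

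**Figure D1:**
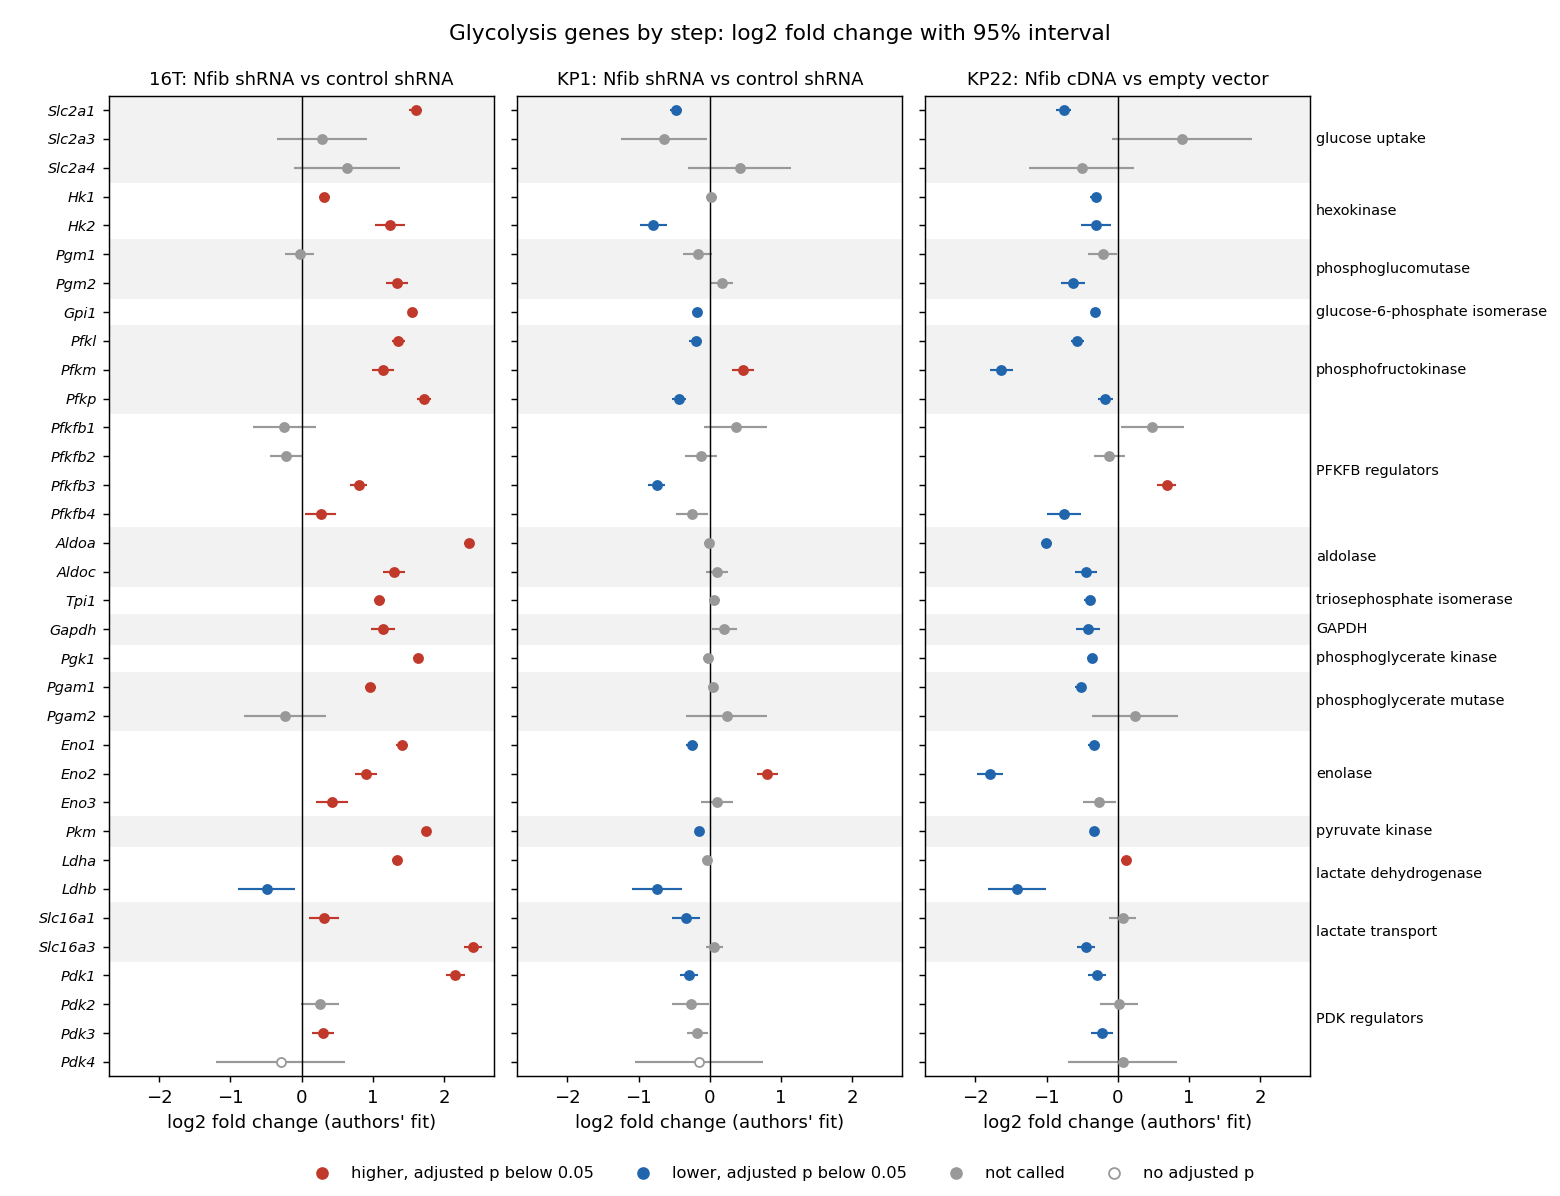
Log2 fold change of each of the 34 genes (points) with 95% intervals (lines), in the authors' fit, ordered by step of the pathway. Panels are 16T, KP1 and KP22; most points lie right of 0 in 16T, near 0 in KP1, and left of 0 in KP22.

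The same gene often moved in opposite directions between 16T, where Nfib was lowered, and KP22, where it was raised, but seldom between KP1 and KP22. Of the 33 members tested in all 3 comparisons, 21 rose in 16T and fell in KP22, a pattern found in 9.19% of all genes so tested. By contrast, 10 members rose in 16T and fell in KP1 (background 2.41%), although Nfib was lowered in both lines. A fall in both KP1 and KP22 was found for 9 members (background 3.40%). Only Pfkm and Eno2 rose in both knockdown lines and fell with the cDNA, which is 2 of 33 members against 4.76% of all genes.

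Most steps were dominated by a single isozyme in these lines, as judged by the mean normalized count per kb of counted exon, averaged over all libraries. Gapdh (42118 per kb), Pkm (31698 per kb) and Tpi1 (21366 per kb) had the highest levels per kb. Slc2a1 held 99.5% of the summed level per kb of the 3 glucose transporters, Pgam1 98.9% of the mutases, Ldha 98.7% of the lactate dehydrogenases, Aldoa 91.8% of the aldolases, Hk1 90.5% of the hexokinases and Eno1 89.5% of the enolases. Phosphofructokinase was shared instead, with 45.7% from Pfkl, 44.9% from Pfkp and 9.41% from Pfkm. Slc16a3 held 86.9% of the lactate transporters, Pdk1 45.0% and Pdk3 38.2% of the PDK genes, and Pfkfb3 48.5% of the PFKFB genes. These means include the 16T shRNA libraries, so the order of isozymes is not independent of the changes.

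**Figure D2:**
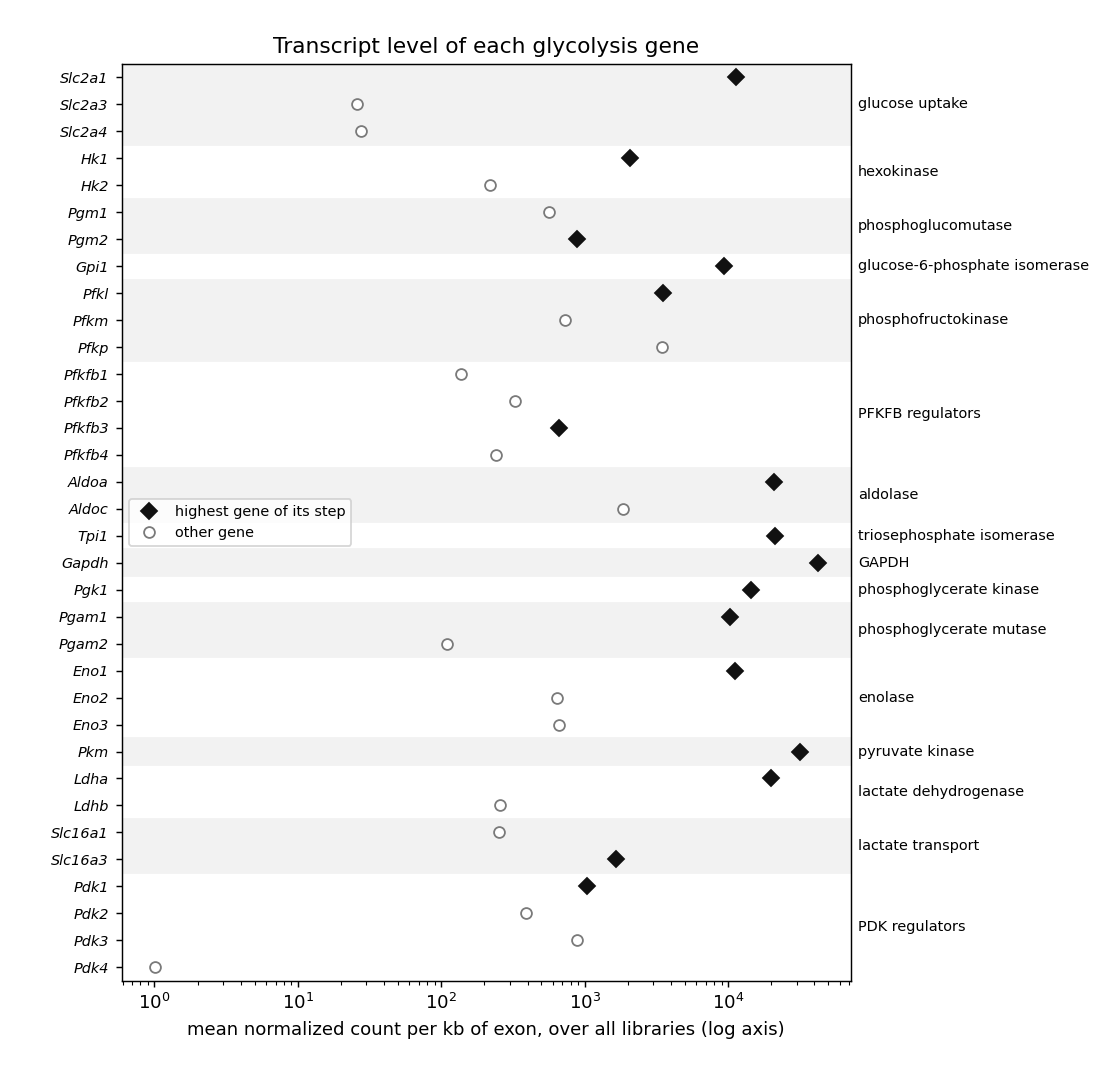
Mean normalized count per kb of exon over all libraries (horizontal log axis) for each of the 34 genes, by step. Diamonds mark the highest gene of a step; they lie far above the open circles in glucose uptake, phosphoglycerate mutase and lactate dehydrogenase, and next to one in phosphofructokinase, where Pfkl and Pfkp hold 45.7% and 44.9%.

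Of the glucose transporter genes, Slc2a1 passed the test in every line. It encodes the widespread glucose transporter GLUT1 (chromosome 4, 119108745 to 119137329, mm10). Its log2 fold changes by the authors' deposited table were 1.60 ± 0.045 in 16T (adjusted p = 1.43e-274), -0.48 ± 0.044 in KP1 and -0.76 ± 0.053 in KP22, so its level was 3.03 times the control in 16T and 71.9% and 59.1% of it in KP1 and KP22. The neuronal transporter gene Slc2a3 and the insulin-responsive Slc2a4 had mean normalized counts of only 102 and 77.6 and passed no test. Slc2a3 showed 0.29 ± 0.32 in 16T, -0.65 ± 0.31 in KP1 and 0.90 ± 0.50 in KP22, and Slc2a4 0.63 ± 0.38, 0.42 ± 0.37 and -0.51 ± 0.38, in the authors' deposited table.

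Both hexokinase genes, whose products trap glucose by phosphorylation, rose in 16T and fell in KP22. Hk2, which is inducible and binds mitochondria, had a log2 fold change of 1.24 ± 0.11 in 16T (adjusted p = 3.15e-30), -0.79 ± 0.095 in KP1 and -0.31 ± 0.11 in KP22 (adjusted p = 0.0156, or 0.0915 against a t distribution with 6 df) by the authors' deposited table. Hk1, the constitutive isozyme, showed 0.31 ± 0.040 in 16T, 0.02 ± 0.040 in KP1 and -0.31 ± 0.040 in KP22 by the authors' deposited table. Hk1 was not called in KP1. Gpi1, the isomerase that makes fructose phosphate and the gene with no isozyme at this step, rose to 2.94 times the control in 16T (1.55 ± 0.034, adjusted p stored as 0) and fell in KP1 (-0.18 ± 0.033) and KP22 (-0.32 ± 0.034) in the authors' deposited table.

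Phosphoglucomutase, which links glucose phosphate to glycogen, has a pair of genes whose names differ between the table and RefSeq. The table's Pgm2 lies on chromosome 4 (99929451 to 99987294, mm10), where RefSeq on GRCm38.p6 places Pgm1, and the table's Pgm1 lies on chromosome 5 (64092950 to 64128158), where RefSeq places Pgm2. The names of the table are kept here. The chromosome 4 gene, Pgm2 in the table, rose in 16T (1.33 ± 0.078, adjusted p = 3.7e-63), had 0.17 ± 0.078 in KP1 without a call and fell in KP22 (-0.63 ± 0.086) in the authors' deposited table. The chromosome 5 gene, Pgm1 in the table, passed no test, with -0.03 ± 0.10 in 16T, -0.17 ± 0.10 in KP1 and -0.21 ± 0.10 in KP22 (adjusted p = 0.101, or 0.0416 when effects are recentred on the median gene) by the authors' deposited table.

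The 3 phosphofructokinase genes, which make subunits of the main control enzyme, separated by isozyme in KP1. All 3 rose in 16T. Pfkp, the platelet type, led with 1.71 ± 0.052 (adjusted p = 2.03e-236), followed by Pfkl, the liver type, with 1.36 ± 0.047 (adjusted p = 1.62e-184) and Pfkm, the muscle type, with 1.14 ± 0.081 (adjusted p = 3.31e-43) in the authors' deposited table. In KP1 Pfkm rose (0.47 ± 0.079, adjusted p = 3.57e-08) while Pfkl fell (-0.20 ± 0.046, adjusted p = 8.29e-05) and Pfkp fell (-0.43 ± 0.051, adjusted p = 9.08e-16) in the authors' deposited table. Pfkm fell to 32.2% of the control in KP22 (-1.63 ± 0.083, adjusted p = 2.27e-84), beside falls of Pfkl (-0.57 ± 0.046) and Pfkp (-0.18 ± 0.053, adjusted p = 0.00364, or 0.0584 against a t distribution) in the authors' deposited table. Pfkm lies on chromosome 15 (98092589 to 98132447, mm10) and Pfkp on chromosome 13 (6582403 to 6648771). Exons listed jointly under Pitrm1 and Pfkp had 0.30 ± 0.086 in KP22 (adjusted p = 0.002) in the authors' deposited table, the opposite sign to Pfkp alone. Whether reads were counted by strand is not given in the sources used here, so this piece cannot be ascribed to either gene. A piece of Pfkm listed under a doubled name (mean normalized count 58.8) had 0.87 ± 0.35, 0.34 ± 0.34 and -1.25 ± 0.37 in 16T, KP1 and KP22 in the authors' deposited table, of which the KP1 value was not called (adjusted p = 0.51).

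The PFKFB genes encode enzymes that make and break the bisphosphate that activates phosphofructokinase, and only Pfkfb3, whose product mostly makes it, passed the test in all 3 lines. Pfkfb3 rose in 16T (0.80 ± 0.062), fell to 59.6% of the control in KP1 (-0.75 ± 0.063) and rose to 1.61 times the control in KP22 (0.68 ± 0.067, adjusted p = 3.08e-23) in the authors' deposited table. Pfkfb3 and Ldha were the members that rose in both 16T and KP22, where Nfib was lowered and raised. Pfkfb4 went the other way in KP22, with -0.76 ± 0.12 (adjusted p = 3.8e-09), and showed 0.27 ± 0.11 in 16T (adjusted p = 0.0435, or 0.125 when the Wald ratio is read against a t distribution, 6 degrees of freedom) and -0.25 ± 0.11 in KP1 in the authors' deposited table. Pfkfb2, the heart type, showed -0.22 ± 0.11 in 16T and -0.12 ± 0.11 in both KP1 and KP22, with no call, in the authors' deposited table. A piece listed under its doubled name, at a mean normalized count of 962, showed -0.35 ± 0.11 in 16T (adjusted p = 0.00388) in the authors' deposited table. Exons listed jointly under Yod1 and Pfkfb2, at a mean of 457, had the opposite sign in 16T without a call. Their value there was 0.13 ± 0.15 (adjusted p = 0.522) in the authors' deposited table. Pfkfb1, the liver type, passed no test, with -0.25 ± 0.23, 0.36 ± 0.22 and 0.49 ± 0.23 in 16T, KP1 and KP22 in the authors' deposited table.

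The middle of the pathway, from aldolase to phosphoglycerate kinase, rose in 16T and fell in KP22 without a call in KP1. Aldoa, the main aldolase, rose to 5.08 times the control in 16T (2.34 ± 0.037, adjusted p stored as 0), had -0.02 ± 0.036 in KP1 and fell to 49.9% of the control in KP22 (-1.003 ± 0.038, adjusted p = 2.79e-151) in the authors' deposited table. It lies on chromosome 7 (126795234 to 126800447, mm10) and ranked number 63 of 14504 genes by log2 fold change in 16T. Aldoc, the brain aldolase, showed 1.29 ± 0.077 in 16T (adjusted p = 5.51e-61), 0.11 ± 0.078 in KP1 and -0.44 ± 0.080 in KP22 by the authors' deposited table. Tpi1, which interconverts the triose phosphates, showed 1.09 ± 0.038 in 16T (adjusted p = 6.13e-179), 0.07 ± 0.037 in KP1 and -0.40 ± 0.038 in KP22 by the authors' deposited table. Exons listed jointly under Tpi1 and Spsb2 gave like values, 1.18 ± 0.042, 0.09 ± 0.042 and -0.46 ± 0.043, in the authors' deposited table.

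Pgk1, which makes ATP at a payback step, rose to 3.10 times the control in 16T (1.63 ± 0.033, adjusted p stored as 0), had -0.03 ± 0.033 in KP1 and fell in KP22 (-0.37 ± 0.034) in the authors' deposited table. Gapdh, which oxidises triose phosphate and serves widely as a loading control, rose in 16T (1.14 ± 0.087, adjusted p = 9.25e-38) and fell in KP22 (-0.42 ± 0.087, adjusted p = 9.53e-06) in the authors' deposited table. In KP1 it had 0.20 ± 0.087 without a call (adjusted p = 0.0547) in the authors' deposited table, or an adjusted p of 0.0339 when effects were recentred on the median gene. Gapdh has many near-identical copies: 143 pseudogene loci of GENCODE M21 matched at least 500 bases of its transcript at 90% identity or more, and 7 of them overlapped counted exons. How reads that fit several loci were counted is not given in the sources used here, so the level of Gapdh is uncertain. The other members had 28 such loci in all, over 9 genes (Ldha with 8, Eno1 and Pkm with 5 each), or none.

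In the lower part of glycolysis, Pgam1, Eno1 and Pkm moved together in 16T and KP22. Pgam1, the widespread mutase, showed 0.96 ± 0.038 in 16T, 0.05 ± 0.037 in KP1 and -0.52 ± 0.038 in KP22, and Pgam2, the muscle type at a mean of 100.2, passed no test, with -0.24 ± 0.29, 0.24 ± 0.29 and 0.24 ± 0.31 in the authors' deposited table. Pkm, which encodes the pyruvate kinase of most tissues and tumors, rose to 3.36 times the control in 16T (1.75 ± 0.028, adjusted p stored as 0) and fell in KP1 (-0.15 ± 0.028) and KP22 (-0.34 ± 0.028) in the authors' deposited table. The table counts the gene, so its splice forms are not told apart.

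The enolases, which make phosphoenolpyruvate, separated as the phosphofructokinases did. Eno1, the widespread enolase, showed 1.41 ± 0.043 in 16T (adjusted p = 9.18e-229), -0.25 ± 0.043 in KP1 (adjusted p = 1.02e-07) and -0.34 ± 0.042 in KP22 by the authors' deposited table. Eno2, the neuron-specific enolase long used as a marker of neuroendocrine tumors, rose in KP1 as well as in 16T and had the largest fall of any member in KP22. Its values in the authors' deposited table were 0.90 ± 0.080 in 16T, 0.81 ± 0.076 in KP1 (adjusted p = 8.04e-25) and -1.80 ± 0.093 in KP22 (adjusted p = 3.36e-81), the last being 28.7% of the control. Eno3, the muscle type, rose slightly in 16T (0.42 ± 0.12, adjusted p = 0.00103) and had 0.10 ± 0.12 in KP1 and -0.26 ± 0.12 in KP22 (adjusted p = 0.068, or 0.0284 when recentred) by the authors' deposited table.

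At the lactate step the isozymes parted in 16T and KP22. Ldha, whose subunit favours lactate formation, rose to 2.52 times the control in 16T (1.34 ± 0.034, adjusted p stored as 0), had -0.04 ± 0.033 in KP1 and rose slightly in KP22 (0.11 ± 0.033, adjusted p = 0.0039, or 0.0801 when recentred on the median gene and 0.0595 against a t distribution) in the authors' deposited table. Ldhb, whose subunit favours the use of lactate, was lower in every line, with -0.49 ± 0.20 in 16T (adjusted p = 0.0408, or 0.0634 when recentred and 0.121 against a t distribution), -0.74 ± 0.18 in KP1 (adjusted p = 0.000267) and -1.42 ± 0.21 in KP22 (adjusted p = 1.05e-10) in the authors' deposited table. Its mean normalized count was 332, against 38312 for Ldha. Ldhb lies on chromosome 6 (142490249 to 142507943, mm10) and Ldha on chromosome 7 (46845804 to 46855627).

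Lactate leaves the cell through monocarboxylate transporters. Slc16a3, which encodes MCT4, the exporter of highly glycolytic cells, had the largest rise of all members in 16T, 2.40 ± 0.065 (adjusted p = 3.84e-291), with 0.06 ± 0.063 in KP1 and -0.44 ± 0.064 in KP22 by the authors' deposited table. The gene, on chromosome 11 (120948484 to 120959000, mm10), ranked number 54 of 14504 genes in 16T and reached 5.27 times the control. Slc16a1, which encodes MCT1 and carries lactate either way, rose slightly in 16T (0.31 ± 0.10, adjusted p = 0.00883, or 0.0683 against a t distribution), fell in KP1 (-0.33 ± 0.098, adjusted p = 0.00311, or 0.0587) and had 0.07 ± 0.096 in KP22 by the authors' deposited table.

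Among the pyruvate dehydrogenase kinases, Pdk1 (chromosome 2, 71873224 to 71903858, mm10) had the largest rise in 16T. It rose to 4.45 times the control in 16T (2.15 ± 0.067, adjusted p = 2.19e-221), number 84 of 14504 genes, and fell in KP1 (-0.29 ± 0.065) and KP22 (-0.29 ± 0.066) in the authors' deposited table. Pdk3 rose slightly in 16T (0.30 ± 0.079), had -0.17 ± 0.077 in KP1 and fell in KP22 (-0.22 ± 0.079, adjusted p = 0.0195, or 0.0991 against a t distribution) in the authors' deposited table. Pdk2 passed no test, with 0.26 ± 0.14, -0.27 ± 0.13 and 0.01 ± 0.14 in 16T, KP1 and KP22 in the authors' deposited table. Pdk4, which fasting and lipid signals induce in muscle and liver, was barely detected, at a mean normalized count of 3.47; it had no adjusted p in 16T and KP1 and was not called in KP22 (0.07 ± 0.39) in the authors' deposited table.

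The effect of the Nfib shRNA on glycolysis differed between 16T and KP1 when the difference itself was tested. The difference of the log2 fold changes, 16T minus KP1, was above 0 in 24 of 33 members (background 14.0% of 15008 genes) and below 0 in 0 (background 15.5%), at an adjusted p below 0.05 from a normal test on the deposited effects and errors. At an unadjusted p below 0.05 these counts were 25 and 0. The largest differences were those of Pdk1 (2.44 ± 0.093), Aldoa (2.36 ± 0.052), Slc16a3 (2.33 ± 0.091), Pfkp (2.15 ± 0.073), Slc2a1 (2.08 ± 0.063) and Hk2 (2.03 ± 0.14). Eno2 was among the 9 members with no call, its difference being 0.09 ± 0.11. The comparison cannot separate the line from anything else that differed between the pairs of samples.

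Effects turned towards higher Nfib were also compared between KP22 and each knockdown line, by adding the KP22 and knockdown log2 fold changes. The sum of KP22 and 16T was above 0 in 19 members and below 0 in 4 (background 16.7% and 18.8%). The 19 include Slc16a3 (1.96 ± 0.092), Pdk1 (1.86 ± 0.095) and Pkm (1.41 ± 0.039), whose rise in 16T was larger than their fall in KP22. The 4 are Pfkm (-0.49 ± 0.12), Pfkfb4 (-0.50 ± 0.17, adjusted p = 0.0102, or 0.0892 against a t distribution), Eno2 (-0.90 ± 0.12) and Ldhb (-1.91 ± 0.29), the first 3 of which fell further in KP22 than they rose in 16T. The sum of KP22 and KP1 was above 0 in 1 member, Pfkfb1 (0.85 ± 0.32, adjusted p = 0.0244 by the normal test, or 0.118 against a t distribution), and below 0 in 22 (background 18.0% and 18.3%). Pfkfb3 (-0.06 ± 0.091) and Ldha (0.07 ± 0.047) were among those with no call, and in the case of Pfkfb3 the values in KP22 and KP1 were of like size and opposite sign.

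**Figure D3:**
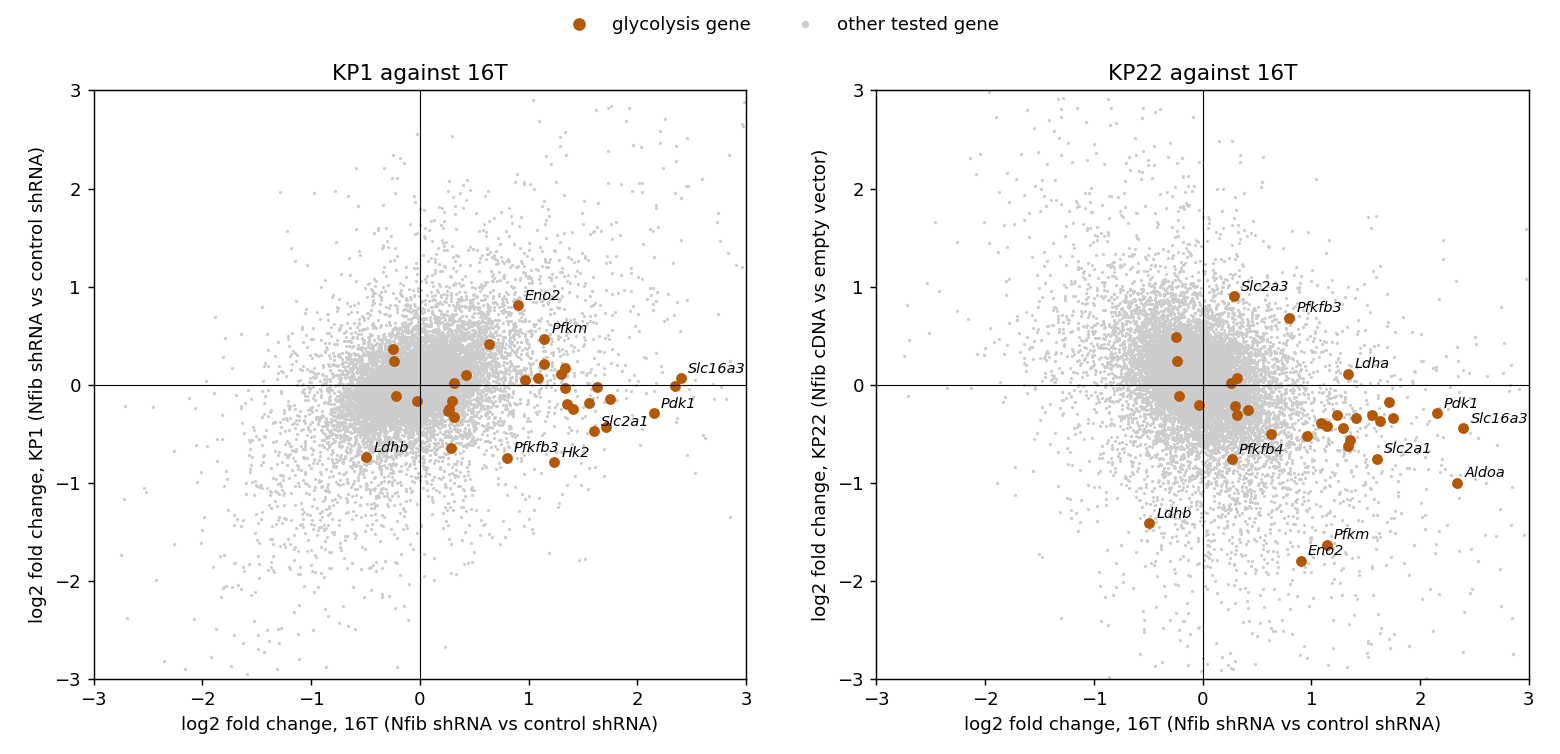
Log2 fold changes in KP1 (left panel, vertical axis) and KP22 (right panel, vertical axis) against those in 16T (horizontal axes), with the glycolysis genes in orange over all other tested genes in grey. The orange points stretch to the right, near the horizontal line in KP1 and mostly below it in KP22; axes end at 3, which leaves out 46 and 106 genes.

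Promoters of the members were searched for the core letters of the HIF-1 response element, because many of these genes are known HIF-1 targets and moved together in 16T. The 250 bases upstream of each listed start (RefSeq, GRCm38.p6) were read on both strands for ACGTG and GCGTG, with CACGTG, an E-box that holds ACGTG on both strands, counted as 1 match. Of the members, 32 had at least 1 listed start, with 51 starts in all, and Slc2a3 and Slc2a4 had none in the list. At least 1 of the cores was found in 74.5% of the members' promoters and in 38.6% of all 32851. The members' promoters had a median GC content of 58.8%, against 52.4% for all. ACGTG alone was in 39.2% of the members' promoters (16.6% of all) and GCGTG in 49.0% (28.2% of all). Among members that rose by at least 1 in 16T the share with either core was 78.6% of 28 promoters, against 69.6% of the 23 promoters of the other members. The full palindromic NFI motif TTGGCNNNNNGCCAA was in 0 of the 51 and in 12 of all promoters, and its arm TTGGC, on either strand, in 58.8% and 41.5%. These matches describe letters only and say nothing of binding.

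The upstream sequences of 4 genes that rose by at least 1 in 16T and of Ldhb, which fell, are shown so that the cores can be seen in place. The windows are chr7:126799255-126799504 (minus strand) for Aldoa, chr2:71872974-71873223 (plus) for Pdk1, chrX:106186850-106187099 (plus) for Pgk1, chr7:46845554-46845803 (plus) for Ldha and chr6:142507958-142508207 (minus) for Ldhb. Each is read 5' to 3' on the gene's strand and ends at the base before the start, with ACGTG and GCGTG, or their reverse complements CACGT and CACGC, in capitals. For genes with several starts, the window with most cores among those overlapping no annotated exon is given.
Aldoa: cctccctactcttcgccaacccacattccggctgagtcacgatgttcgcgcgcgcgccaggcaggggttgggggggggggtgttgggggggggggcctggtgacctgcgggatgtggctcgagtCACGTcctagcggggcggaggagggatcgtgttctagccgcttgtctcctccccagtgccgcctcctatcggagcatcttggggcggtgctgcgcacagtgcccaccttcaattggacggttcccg
Pdk1: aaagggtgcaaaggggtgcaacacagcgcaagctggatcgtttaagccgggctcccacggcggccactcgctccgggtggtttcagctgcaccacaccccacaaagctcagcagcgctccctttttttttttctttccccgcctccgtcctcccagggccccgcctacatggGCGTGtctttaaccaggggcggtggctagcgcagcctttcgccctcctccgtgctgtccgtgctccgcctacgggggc
Pgk1: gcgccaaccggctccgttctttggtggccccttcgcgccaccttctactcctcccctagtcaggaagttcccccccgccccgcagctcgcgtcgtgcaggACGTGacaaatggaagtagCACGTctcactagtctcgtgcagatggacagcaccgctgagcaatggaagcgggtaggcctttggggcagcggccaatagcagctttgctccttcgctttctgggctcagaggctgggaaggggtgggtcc
Ldha: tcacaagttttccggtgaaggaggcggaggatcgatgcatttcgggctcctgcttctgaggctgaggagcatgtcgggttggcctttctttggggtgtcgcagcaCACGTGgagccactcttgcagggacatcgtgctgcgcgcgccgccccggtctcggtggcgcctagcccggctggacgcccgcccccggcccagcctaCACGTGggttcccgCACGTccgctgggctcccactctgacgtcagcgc
Ldhb: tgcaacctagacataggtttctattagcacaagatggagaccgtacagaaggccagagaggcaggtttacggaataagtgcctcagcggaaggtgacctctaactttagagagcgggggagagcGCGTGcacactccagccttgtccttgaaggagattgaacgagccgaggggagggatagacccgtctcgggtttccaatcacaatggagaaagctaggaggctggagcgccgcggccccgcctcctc
Ldha held 3 ACGTG matches, 2 of them within a CACGTG, and Pgk1 held 2. Aldoa had 1 ACGTG, and Pdk1 and Ldhb had 1 GCGTG each.

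Neighbouring routes of glucose metabolism had smaller shares of rises in 16T than the glycolysis genes, in lists whose difference from them was not tested. Among other sugar transporters and glycolysis isozymes, 18 were tested in 16T, where 3 rose and 6 fell (background 20.0% and 25.3%). KP1 had 1 rise and 3 falls among the 18 (background 17.6% and 19.6%). KP22 had 3 rises and 5 falls among 28 (background 19.5% and 18.8%). In 16T the rises, and in KP22 the falls, were near the shares of all tested genes. The median log2 fold change of this list was -0.12, -0.13 and 0.03 over those tested in 16T, KP1 and KP22. Slc2a13, a proton-coupled inositol transporter of the same family, rose in 16T (1.37 ± 0.11) and fell in KP1 (-0.44 ± 0.14) and KP22 (-1.77 ± 0.16) in the authors' deposited table. Slc2a5, the fructose transporter GLUT5, rose in KP1 (3.05 ± 0.44) at a mean normalized count of 39.4 and showed 1.02 ± 0.46 in 16T without a call (adjusted p = 0.0601) in the authors' deposited table. The enolase relative Eno4 fell in 16T (-1.34 ± 0.47, adjusted p = 0.014) and the fructose kinase gene Khk fell in KP22 (-1.46 ± 0.33), at means of 29.4 and 95.8, in the authors' deposited table.

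The pentose phosphate pathway, which draws glucose phosphate off towards NADPH and ribose, mostly fell with the Nfib shRNA. Of 9 tested genes, 0 rises and 6 falls were found in 16T (background 20.0% and 25.3% of all tested genes). KP1 had 1 rise and 5 falls among the 9 (background 17.6% and 19.6%). KP22 had 4 rises and 1 fall among 10 (background 19.5% and 18.8%). The same background shares apply to the other lists below. The medians of the pentose phosphate list in 16T, KP1 and KP22 were -0.26, -0.21 and 0.16. Taldo1, the transaldolase of this pathway, fell to the largest extent in 16T, -1.03 ± 0.050 (adjusted p = 6.98e-91), with -0.45 ± 0.049 in KP1 and -0.10 ± 0.048 in KP22 by the authors' deposited table. The 8 genes of the serine and glycerol branches had 0 rises and 6 falls in 16T, 4 rises and 1 fall in KP1, and 6 rises and 1 fall in KP22, with medians of -0.34, 0.09 and 0.41. Gpd1, which shunts triose phosphate to glycerol phosphate, showed -1.07 ± 0.12 in 16T, -0.74 ± 0.12 in KP1 and 0.94 ± 0.11 in KP22 by the authors' deposited table. Mitochondrial pyruvate entry, 11 genes, had 0 rises and 2 falls in 16T, 1 rise and 2 falls in KP1, and 5 rises and 2 falls in KP22. Its falls in KP1 and KP22 were near the shares of all tested genes. The medians of this list in 16T, KP1 and KP22 were -0.09, -0.05 and 0.10.

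Glycogen genes were mixed. Of 12, 3 rose and 1 fell in 16T (background 20.0% and 25.3%), the rises being near the share of all tested genes. For the glycogen list, KP1 had 3 rises and 4 falls (background 17.6% and 19.6%) and KP22 1 rise and 5 falls (background 19.5% and 18.8%). Its medians in 16T, KP1 and KP22 were 0.20, -0.03 and -0.23. Pygl, the liver glycogen phosphorylase, rose in 16T (2.53 ± 0.48) and fell in KP22 (-1.81 ± 0.49), and Pygb, the brain form, fell in KP22 (-1.48 ± 0.050, adjusted p = 4.99e-188) in the authors' deposited table. Ppp1r3c, a glycogen-targeting phosphatase subunit, fell in KP1 (-1.53 ± 0.37) in the authors' deposited table. Regulators of glycolysis, set against the same backgrounds, had 4 rises and 3 falls among 13 tested in 16T. They had 1 rise and 4 falls among 13 in KP1, and 4 rises and 5 falls among 14 in KP22. Their falls in 16T were near the share of all tested genes. The medians of the regulators in 16T, KP1 and KP22 were -0.09, -0.25 and -0.12. Egln3, a prolyl hydroxylase that marks HIF proteins for decay and is itself a HIF target, rose in 16T (1.39 ± 0.088), fell in KP1 (-0.46 ± 0.083) and had 0.04 ± 0.091 in KP22 by the authors' deposited table. Txnip, which restrains glucose uptake, rose in 16T (1.42 ± 0.047) and fell in KP22 (-0.47 ± 0.049) in the authors' deposited table. The MYC family gene Mycl moved with Nfib in every line (-1.27 ± 0.030 in 16T, -1.41 ± 0.030 in KP1, 1.52 ± 0.030 in KP22), and Mycn had -0.25 ± 0.12, -1.14 ± 0.13 and 1.11 ± 0.14, in the authors' deposited table.

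**Figure D4:**
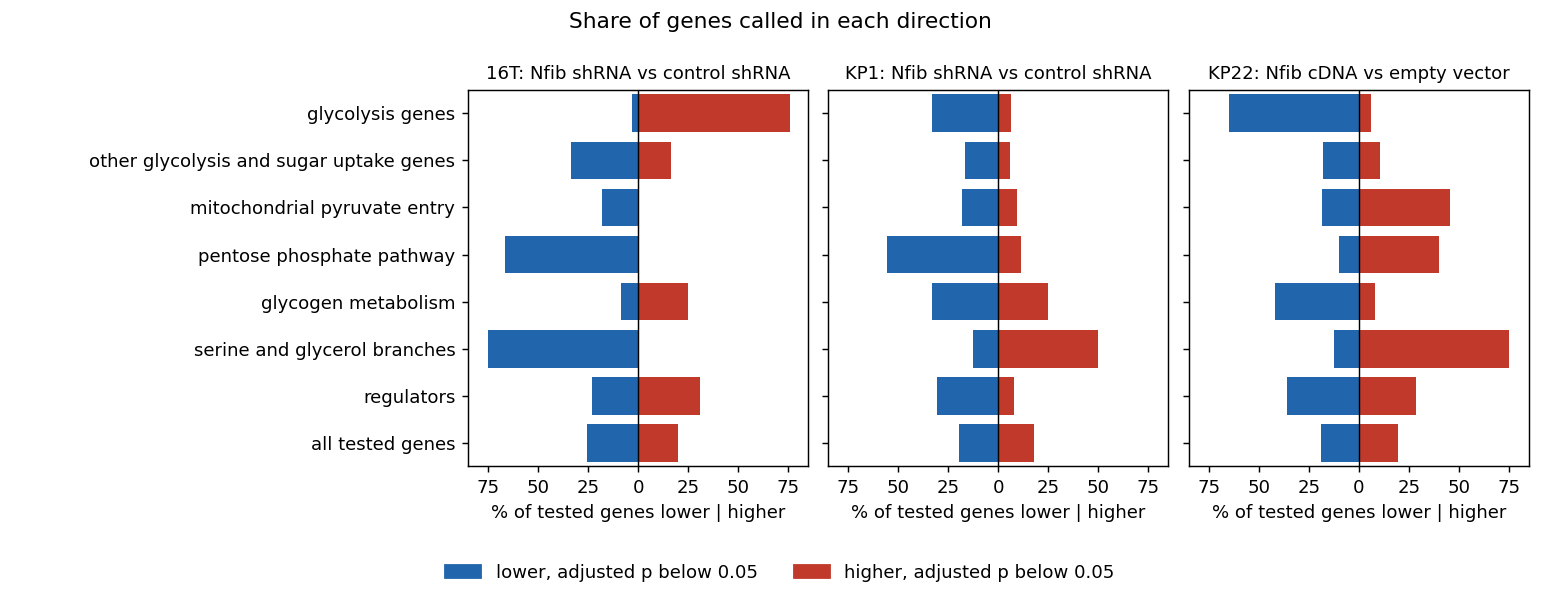
Share of tested genes that fell (blue, left of 0) and rose (red, right of 0) at an adjusted p below 0.05, in % of the genes tested, for the glycolysis genes, 6 other lists and all tested genes. In 16T the glycolysis bar reaches furthest to the right, while the pentose phosphate and serine bars lie to the left.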

How the data were processed

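RNA was sequenced in 12 samples of 3 cell lines. The submitters' processing notes name build mm10 and the tools TopHat, bedtools, DESeq2 and DESeq, with no version that could be used here. The table's name mentions cqn. The authors deposited, for 28112 features, the mean normalized count, a signal averaged over every library. Per the file headers, each comparison also has a log2 fold change with SE, p-value and adjusted p-value, and the adjusted p of a further test against 0.5. A deposited list gives 211975 exon intervals; lengths per kb are sums of the intervals under a gene's own name, the rest (other) of that list being unused. Depth per library is unknown, so precision is that of the authors' SEs.

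As the table holds results only, calls are the deposited adjusted p-values below 0.05, over all 23226 features with 1 gene name, of which 14504 had an adjusted p in 16T and KP1 and 17544 in KP22. Differences between comparisons, which share no samples, were tested here (Python 3.11.15, scipy 1.17.1) with errors added as independent, a normal reference and Benjamini-Hochberg adjustment over the 15008 genes whose mean was 10 or more; the script was tested on simulated data. The duplicates' numbers could not be checked for pairing. The 34 members and all lists were chosen with earlier results of these data known. Every member is named; adjusted p is printed for changes of at least 1, for isozymes called in opposite directions and where recentring or a t distribution (6 degrees of freedom) changes a call, and other pathway genes are named where called with a change of at least 1. The authors' heading for the mean of both knockdowns was not used.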

Additional observations from a re-analysis of the deposited data

Results flagged for a closer look

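The effect of the Nfib shRNA differed between 16T and KP1, by a test of the difference itself, in 24 glycolysis genes, all with the higher log2 fold change in 16T. In uptake and the upper steps the difference, 16T minus KP1, was 2.08 for Slc2a1, 0.30 for Hk1, 2.03 for Hk2, 1.17 for Pgm2 and 1.74 for Gpi1. For the phosphofructokinase genes and their regulators it was 1.56 for Pfkl, 0.67 for Pfkm, 2.15 for Pfkp, 1.55 for Pfkfb3 and 0.52 for Pfkfb4. In the middle steps it was 2.36 for Aldoa, 1.19 for Aldoc, 1.02 for Tpi1, 0.94 for Gapdh and 1.66 for Pgk1, and in the lower steps 0.92 for Pgam1, 1.66 for Eno1, 1.90 for Pkm and 1.37 for Ldha. For lactate transport and the PDK genes it was 0.65 for Slc16a1, 2.33 for Slc16a3, 2.44 for Pdk1, 0.53 for Pdk2 and 0.47 for Pdk3. The adjusted p-values, from a normal test over 15008 genes, ran up to 0.0233 for Pdk2. Against a t distribution, Pdk2 (0.132) and Pfkfb4 (0.0887) were not called.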

How the results depend on the processing

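The number of members called per comparison or difference, both directions added, stayed within 1.5 times under an adjusted p below 0.01, other filters on the mean, recentring on the median gene and a t distribution with 6 degrees of freedom. Small counts in a single direction did not: the fall in 16T (Ldhb) was lost under all of these but the filter of a mean of 100, 1 of 2 rises in KP22 (Ldha) under recentring and t, and the member above 0 in KP22 plus KP1 (Pfkfb1) under 0.01 and t. With a change of at least 1 required, 17 members were called in 16T, 0 in KP1 and 4 in KP22; the deposited test against 0.5 called 2 in KP1 and 5 in KP22. The joint counts, recomputed after the data were seen, stayed within 1.5 times under the other settings. They fell to 2 (16T higher, KP22 lower), 0 (16T higher, KP1 lower), 0 (KP1 and KP22 lower) and 0 (16T and KP1 higher, KP22 lower) with a change of at least 1, and to 4, 1, 0 and 1 against 0.5. These fewer calls follow from the larger change asked for. Of the values of single genes under alternatives, 1095 kept direction and call, 110 lost the call, 6 gained it and 1 reversed: exons counted under Pitrm1 and Pfkp jointly had 0.30 in KP22, against -0.18 for Pfkp; the cause was not tested. The leading gene of all 16 steps was the same with GENCODE M21 transcript lengths and with joined exons added, both chosen after the data were seen. Gpi1, Tpi1, Gapdh, Pgk1 and Pkm are the only members at their steps, so there the leader could not change. No paired analysis was possible because the table holds no values per sample; leaving out replicates, other normalizations and lengths by protein were not run. Recentring lost Ldhb in 16T and Ldha in KP22 and gained Gapdh in KP1 and Pgm1 and Eno3 in KP22. Low means limit Slc2a3, Slc2a4, Pgam2 and Pdk4.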

Other observations

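A set of 3 members lie in order on chromosome 6 (mm10): Eno2 at 124760055 to 124769509, Tpi1 at 124811517 to 124814296 and Gapdh at 125161852 to 125166467. In KP1 the log2 fold changes by the authors' deposited table were 0.81 ± 0.076 for Eno2, 0.07 ± 0.037 for Tpi1 and 0.20 ± 0.087 for Gapdh. In KP22 the values were -1.80 ± 0.093, -0.40 ± 0.038 and -0.42 ± 0.087 in the authors' deposited table. In 16T all 3 rose, by 0.90 ± 0.080, 1.09 ± 0.038 and 1.14 ± 0.087, in the authors' deposited table.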
